A study of Mus musculus with 3 samples.

Results

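The genes described here are 9 that encode the sensors of RNA and DNA in the cytosol and the proteins that pass their signal on: Ddx58, Ifih1, Dhx58, Mavs, Mb21d1, Tmem173, Zbp1, Tbk1 and Ikbke. They were chosen by the gene name printed on the array, which uses older names for 3 of them: Ddx58 is now Rigi, Mb21d1 is now Cgas and Tmem173 is now Sting1. They are 9 of the 36870 gene names on the array, and 17 probes of 60 bases measured them. RAW264.7, a mouse macrophage cell line, was stimulated for 3 h with lipopolysaccharide (LPS), a cell wall component of Gram-negative bacteria that activates Toll-like receptor 4 (TLR4). In 1 group LPS was given alone, and in the other groups the cells first received LOC1 or LOC3, strains of Lactiplantibacillus plantarum from fresh tea leaves, and then LPS (LOC1 + LPS and LOC3 + LPS). The bacteria were present for 12 h by the series description and for 24 h by the methods, which add that they were washed away before LPS, and for the LPS dose the methods give 50 ng/mL where the results text has 100 ng/mL. Each group was measured on 1 Agilent 1-colour array, so no SD, test or p-value between groups can be given, and unchallenged macrophages enter here only through ratios that the authors deposited. All groups are 1 cell line, without primary macrophages.

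RIG-I, the product of Ddx58, and MDA5, the product of Ifih1, are helicases that bind double-stranded RNA in the cytosol, and LGP2, the product of Dhx58, is a related helicase that regulates them. RIG-I and MDA5 act through MAVS, an adaptor on the mitochondrial membrane. Cytosolic DNA is bound by cGAS, the product of Mb21d1, which makes the cyclic dinucleotide cGAMP that activates STING, the product of Tmem173. Both branches end at TBK1 and the related kinase IKK-epsilon, the product of Ikbke, which phosphorylate interferon regulatory factors, and several of the sensors are themselves induced by type I interferon. In macrophages, TLR4 also induces type I interferon, through a separate adaptor.

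Probes of 1 gene can read different transcripts or different stretches of a transcript, as for Ddx58, Dhx58, Mb21d1, Zbp1, Ifih1 and Ikbke. Letters are shown only for Zbp1, Ifih1 and Ikbke, so that a reader can tell which RNA a value refers to. Each line gives the first 30 of the 60 bases, 5′ to 3′ in the sense of the transcript. Their places in the mm9 build, as the array files give them, are all on the minus strand, and no annotation of that build was used here to place them in exons. The first pair belongs to Zbp1, at chr2:173039307-173039366 (a probe for transcript variant 2) and chr2:173032258-173032317. The second pair belongs to Ifih1, at chr2:62435621-62435680 and, for an Ensembl transcript, chr2:62446313-62446372. The last pair belongs to Ikbke, at chr1:133151809-133151868 and, for a predicted transcript variant, chr1:133163076-133163135.
Zbp1, brighter probe: caagctggtcttgaacccacagagatcttc
Zbp1, dimmer probe: acagatgtgacatgaaagtacatgtaacac
Ifih1, brighter probe: gatctcgggctacataaaattaagaaaact
Ifih1, dimmer probe: ttgccatgctttcttgtcttaacttttaca
Ikbke, brighter probe: tcacaaggcactcagaagcaatagaaacat
Ikbke, dimmer probe: tgttggacattttgtgttagaacacaccat

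Levels are given as the processed intensity of a probe. Intensities are as deposited, before scaling between arrays. Before arrays were compared, each log2 value was set against the array's 75th percentile, an intensity of 555 with LPS, 513 with LOC1 + LPS and 516 with LOC3 + LPS. A difference in log2 always refers to these scaled values, and a gene is represented by its brightest probe unless another is named. Probes printed 10 times on each array gave a technical SD for a difference between arrays, which was 0.06 for bright probes in each comparison. For dim probes, with a mean over 2-fold below that percentile, it was 0.28 for LOC1 + LPS against LPS and 0.31 for LOC3 + LPS against LPS, from 10 to 12 probes per array. This SD holds spot noise only and not the variation between cultures. A difference of 2-fold or more, a log2 value of 1, was counted as past the threshold. Both strains are compared with the same LPS array, so an unusual value on that array would enter both differences. In such bulk RNA, fewer cells of a kind and less RNA per cell cannot be told apart.

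The RNA was that of macrophages by its markers. All 9 macrophage markers were well above background on every array, and their summed level was 885 times the 75th percentile with LPS, 763 with LOC1 + LPS and 824 with LOC3 + LPS. Their differences from LPS had both signs, with 3 above and 6 below 0 with LOC1 + LPS, and 4 above and 5 below with LOC3 + LPS. The ends of the range were Csf1r, the receptor for macrophage colony-stimulating factor, at -0.89 and -0.70, and Adgre1, the gene of F4/80, at 0.57 and 0.38. Of the lymphocyte markers, Cd79a was not above background and Cd3e was at 396 to 451. The epithelial markers Cdh1, Vil1 and Krt8 were not above background, and Epcam was above it only with LPS, at 20.7. All 4 fibroblast and endothelial markers were detected, at 25.5 to 72.8. The part of the cell state in the differences below was not tested. Of the housekeeping genes, Actb differed from LPS by 0.03 and 0.08 with LOC1 + LPS and LOC3 + LPS, and Gapdh by 0.26 and 0.31.

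All 17 probes of the 9 genes were well above background on all 3 arrays. By the brightest probe of each gene, Zbp1 had the largest difference of the members in both strain comparisons and Ikbke lay furthest below LPS alone. In the mean of the detected probes with LOC1 + LPS, Ikbke, at -1.15, was further from LPS than Zbp1, at 0.85. Past the 2-fold threshold lay 0 of the 9 members with LOC1 + LPS, where 6.38% of 20018 genes compared were past it. With LOC3 + LPS it was 1 of the 9, Zbp1, where 6.22% of 19789 genes were past it. A threshold of 1.5-fold was passed by Zbp1 alone with each strain, where 19.3% and 17.4% of all genes compared passed it. The median log2 difference of the 9 members from LPS was 0.16 with LOC1 + LPS and 0.20 with LOC3 + LPS, beside 0.00 and 0.03 for all genes compared. Above 0 lay 10041 of 20018 genes compared with LOC1 + LPS and 10676 of 19789 with LOC3 + LPS. In each comparison 7 of the 9 members lay above 0 and Mavs and Ikbke below it, with 3 exceptions among the alternatives. Scaling to the array median put 8 above 0, quantile normalization put Mb21d1 with LOC1 + LPS below 0, and the mean of the detected probes put Ifih1 with LOC3 + LPS below 0.

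**Figure D1:**
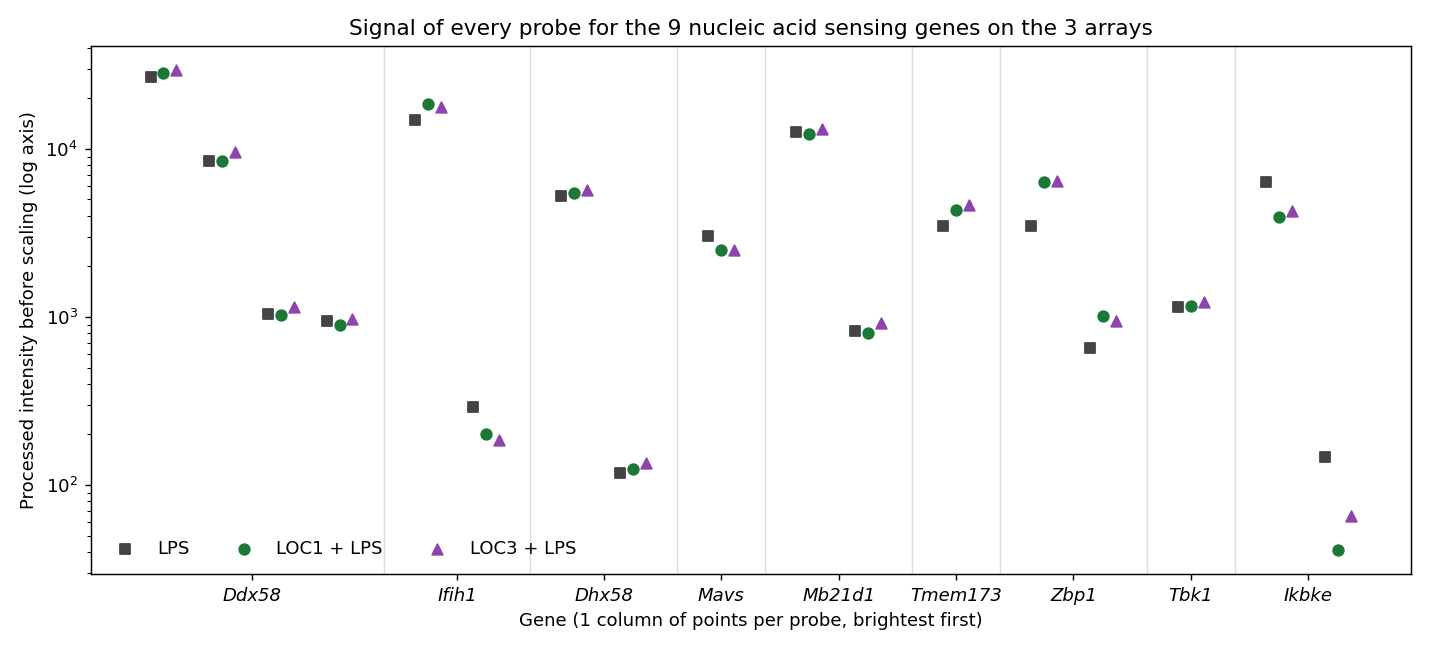
Processed intensity before scaling (log axis) of each of the 17 probes, grouped by gene with the brightest probe first, for the arrays with LPS (squares), LOC1 + LPS (circles) and LOC3 + LPS (triangles). Both Zbp1 probes are lowest with LPS alone, and both Ikbke probes are highest there.

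Of the RNA sensors, Ddx58 was measured by 4 probes. Its brightest probe was measured at 26745 with LPS, 28209 with LOC1 + LPS and 29480 with LOC3 + LPS. That is a log2 difference from LPS of 0.19 and 0.24, or 3.34 and 3.82 technical SDs. The other 3 probes had 8455, 1035 and 942 with LPS, 8462, 1023 and 899 with LOC1 + LPS, and 9604, 1150 and 978 with LOC3 + LPS. After scaling, all 4 lay above LPS with both strains, by 0.05 to 0.19 with LOC1 + LPS and by 0.16 to 0.29 with LOC3 + LPS. So the highest level of Ddx58 was with LOC3 + LPS on every probe, by small margins.

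Ifih1 was measured at 14911 with LPS, 18537 with LOC1 + LPS and 17770 with LOC3 + LPS on its brightest probe. It was 1.34-fold and 1.28-fold higher than with LPS alone, a log2 difference of 0.43 and 0.36, or 7.51 and 5.58 technical SDs. The dim probe for the Ensembl transcript went the other way, with 290 with LPS, 202 with LOC1 + LPS and 185 with LOC3 + LPS. Its differences of -0.41 and -0.54 were 1.48 and 1.77 technical SDs of dim probes. The direction given for Ifih1 is therefore that of the probe on its RefSeq transcript, and the mean of both probes was 0.01 with LOC1 + LPS and -0.09 with LOC3 + LPS.

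Dhx58 was measured at 5276 with LPS, 5459 with LOC1 + LPS and 5655 with LOC3 + LPS. These gave log2 differences of 0.16 and 0.20, or 2.85 and 3.19 technical SDs. A dim probe for another transcript had 117, 125 and 135 in the same order, and its differences of 0.20 and 0.31 were within 1 technical SD of dim probes. All probes of Dhx58 were thus slightly higher with both strains.

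Mavs, the adaptor that RIG-I and MDA5 share, was measured by 1 probe. Its intensity was 3025 with LPS, 2510 with LOC1 + LPS and 2490 with LOC3 + LPS. The log2 differences of -0.16 and -0.18 were 2.77 and 2.78 technical SDs. Among the members, Mavs was the only adaptor or sensor whose brightest probe lay below LPS alone with both strains. With scaling to the array median it lay above, at 0.06 and 0.02.

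In the DNA branch, the difference from LPS was small for the gene of the sensor and larger for that of the protein downstream of it. Mb21d1, the gene of cGAS, was measured at 12640 with LPS, 12218 with LOC1 + LPS and 13192 with LOC3 + LPS. After scaling, the log2 difference was 0.06 with LOC1 + LPS and 0.17 with LOC3 + LPS, or 1.12 and 2.59 technical SDs, and quantile normalization gave -0.03 for LOC1 + LPS. The other probe of Mb21d1 had 827, 804 and 926 in the same order, with differences of 0.07 and 0.27.

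Tmem173, the gene of STING, was measured at 3485 with LPS, 4350 with LOC1 + LPS and 4605 with LOC3 + LPS on its 1 probe. It was 1.35-fold and 1.42-fold higher than with LPS alone, a log2 difference of 0.43 and 0.51, or 7.62 and 7.92 technical SDs. Among all genes compared, 70.1% had a smaller difference with LOC1 + LPS and 78.1% with LOC3 + LPS. Neither gene of the DNA branch was past 2-fold.

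Zbp1 encodes a sensor of left-handed double-stranded nucleic acids that can start RIPK3-dependent cell death. Its probe for variant 2 was measured at 3462 with LPS, 6314 with LOC1 + LPS and 6452 with LOC3 + LPS. The scaled level was 1.972-fold higher with LOC1 + LPS and 2.002-fold higher with LOC3 + LPS, a log2 difference of 0.979 and 1.002, or 17.3 and 15.7 technical SDs. Both values sat at the 2-fold threshold, and the difference between them, 0.02, was smaller than 1 technical SD, so the count of 0 and 1 above does not separate the strains. Among all genes compared, 93.3% had a smaller difference with LOC1 + LPS and 93.8% with LOC3 + LPS.

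The other Zbp1 probe was measured at 658 with LPS, 1009 with LOC1 + LPS and 946 with LOC3 + LPS. Its differences were 0.73 and 0.63, or 12.9 and 9.83 technical SDs. Both probes were thus higher with both strains, by unequal amounts. In the deposited ratios, which the authors scaled in another way, the differences of the variant 2 probe were 1.01 and 1.04.

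Of the kinases, Tbk1 was measured at 1148 with LPS, 1157 with LOC1 + LPS and 1225 with LOC3 + LPS. The log2 differences of 0.12 and 0.20 were 2.17 and 3.08 technical SDs. Its probe covers 224 bases of the genome, at chr10:120988364-120988587 on the minus strand of mm9, more than its 60 bases.

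Ikbke, the gene of IKK-epsilon, was measured at 6315 with LPS, 3943 with LOC1 + LPS and 4293 with LOC3 + LPS. It was 1.48-fold lower with LOC1 + LPS and 1.37-fold lower with LOC3 + LPS, a log2 difference of -0.57 and -0.45, or 9.99 and 7.10 technical SDs. Among all genes compared, 79.8% and 74.7% had a smaller difference. The dim probe for the predicted variant had 147, 41.0 and 65.7 in the same order. On that probe Ikbke was 3.32-fold lower with LOC1 + LPS and 2.09-fold lower with LOC3 + LPS, or 6.27 and 3.45 technical SDs of dim probes. Both Ikbke probes were thus lower with both strains, and the kinases lay on opposite sides of LPS alone.

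**Figure D2:**
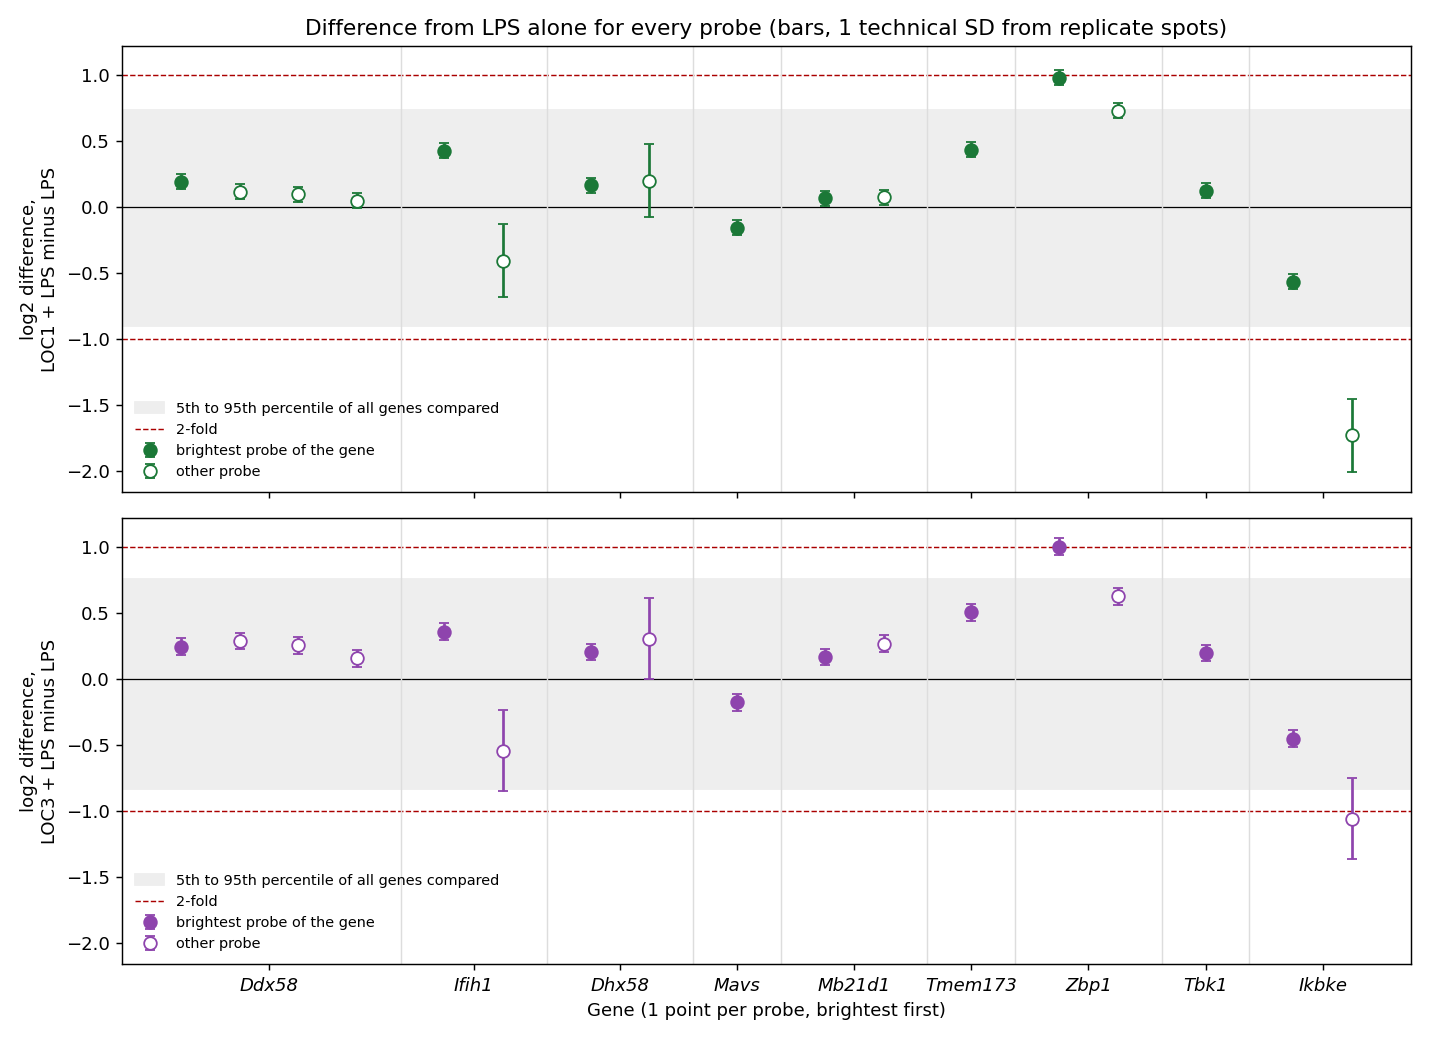
Scaled log2 difference from LPS alone of each probe, with LOC1 + LPS in the upper and LOC3 + LPS in the lower panel. Filled points are the brightest probe of a gene, open points its other probes, bars 1 technical SD, dashed lines 2-fold and the grey band the 5th to 95th percentile of all genes compared. The brightest Zbp1 probe lies above the band and on the 2-fold line, and the dim Ikbke probe lies below both.

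Between the strains, the members were close. None of the 9 differed by 2-fold between LOC1 + LPS and LOC3 + LPS, where 2.66% of 19381 genes did. The log2 difference, LOC1 + LPS less LOC3 + LPS, ran from -0.11 for Ikbke to 0.07 for Ifih1. In technical SDs it ran from 0.32 for Mavs to 1.82 for Ikbke, a range that leaves out the variation between cultures. Other probes differed more. The second probe of Mb21d1 was at -0.19, or 3.1 technical SDs, and the dim probe of Ikbke at -0.67, or 2.27 technical SDs of dim probes. With LOC1 + LPS the level was lower than with LOC3 + LPS for 7 of the 9 members, and higher for Ifih1 and Mavs, though Zbp1, at -0.02, lay above 0 under 3 of its 10 alternatives.

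The response to LPS itself is known here only from the authors' deposited log2 ratios over unchallenged macrophages, which are blank under 2-fold. Of the 17 probes 11 are listed, for 7 of the 9 genes. Tmem173 and Tbk1 are not listed. Absence from that table does not show that a gene was unchanged, because 3 of the 4 Ddx58 probes, the brightest included, are not listed beside 1 that is. With LPS alone 6 of the 9 genes are listed as higher, where 14.1% of 20386 genes detected here are, and 1, Mavs, as lower, where 11.2% are.

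Among the RNA sensors, Ifih1 had a ratio of 5.35 with LPS, 5.81 with LOC1 + LPS and 5.75 with LOC3 + LPS. The listed Ddx58 probe had 5.49, 5.61 and 5.78, and Dhx58 had 3.84, 4.04 and 4.08, in the same order. Ifih1, Ddx58 and Dhx58 were therefore 40.9-fold, 44.8-fold and 14.4-fold higher with LPS alone than in unchallenged cells. The Ddx58 value is that of a probe that is not its brightest. Its implied signal in unchallenged cells was 23.1, near the dimmest detected signal of the LPS array, 16.3. The dim Ifih1 probe had 3.87 with LPS, and the dim Dhx58 probe 2.78.

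Mavs went the other way, with -1.03 with LPS, -1.16 with LOC1 + LPS and -1.17 with LOC3 + LPS. That is 2.05-fold lower with LPS, near the smallest value the table holds. Mb21d1 was near that limit from above, with 1.08, 1.17 and 1.28. The adaptor and the DNA sensor were thus both close to 2-fold, on opposite sides of unchallenged cells.

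Zbp1 had a ratio of 5.39 with LPS, 6.41 with LOC1 + LPS and 6.43 with LOC3 + LPS, which are 42.0-fold, 84.8-fold and 86.3-fold. For the other Zbp1 probe the signal implied for unchallenged cells was under the detection limit, taken as the dimmest detected signal of the array, so that it gives bounds of at least 40.3-fold, 69.5-fold and 47.7-fold. Ikbke had 3.87 with LPS, 3.33 with LOC1 + LPS and 3.45 with LOC3 + LPS, which are 14.6-fold, 10.1-fold and 10.9-fold. Its dim probe gives bounds of at least 9.02-fold with LPS, 2.82-fold with LOC1 + LPS and 3.31-fold with LOC3 + LPS. Zbp1 and Ikbke were both higher than in unchallenged cells in all groups, and with both strains Zbp1 lay above LPS alone and Ikbke below it.

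**Figure D3:**
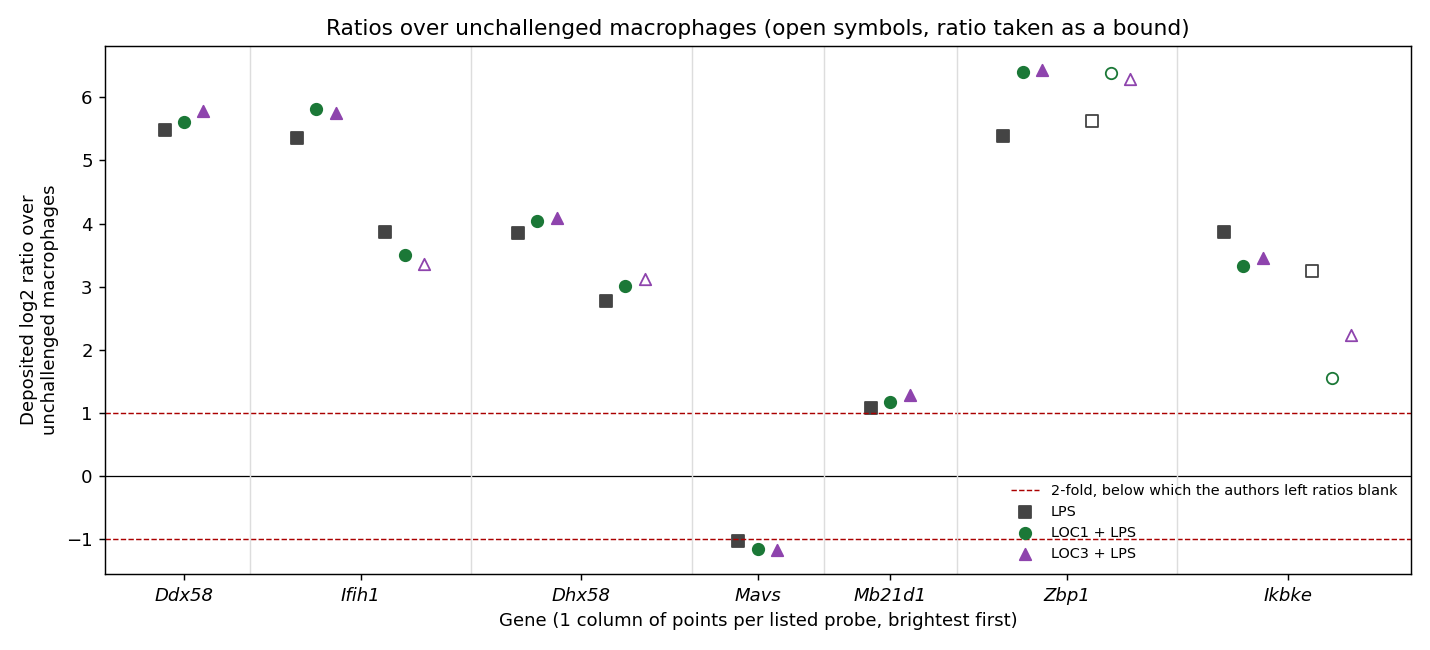
Deposited log2 ratio over unchallenged macrophages of the 11 listed probes with LPS (squares), LOC1 + LPS (circles) and LOC3 + LPS (triangles). Open symbols are ratios taken as bounds, where the signal implied for unchallenged cells was under the detection limit. Mavs is the only gene below 0, at -1.03 to -1.17.

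Other genes of the pathway were compared as 5 lists, and 0 genes of them were past 2-fold with LOC1 + LPS or LOC3 + LPS, where 6.38% and 6.22% of all genes compared were. These values too are those of the brightest probe of each gene. The counts above 0 in the lists stand beside 10041 of 20018 genes compared with LOC1 + LPS and 10676 of 19789 with LOC3 + LPS. Of the RNA sensing cofactors and regulators, 7 of 9 could be compared, and 6 of these lay above 0 with each strain, with medians of 0.11 and 0.24. Trim25, a ubiquitin ligase of RIG-I, differed by 0.37 with LOC1 + LPS and 0.33 with LOC3 + LPS. Mex3c, a further ubiquitin ligase, differed by 0.37 with LOC1 + LPS. Rnf135, which also modifies RIG-I, differed by 0.28 with LOC3 + LPS.

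Of the genes of cytosolic DNA sensing and disposal, 11 of 12 could be compared, with medians of 0.13 and 0.07, and 7 of these lay above 0 with each strain. In the mean of the detected probes 8 lay above 0 with LOC1 + LPS and 9 with LOC3 + LPS, with medians of 0.16 and 0.12. With quantile normalization 6 did with each strain, with medians of 0.09 and 0.02. Samhd1, which degrades deoxynucleotides, differed by 0.37 and 0.49, while its 5 probes ran from -0.60 to 0.77 with LOC1 + LPS and from -0.65 to 0.82 with LOC3 + LPS. Nlrc3, an inhibitor of STING, differed by -0.38 with LOC1 + LPS, and by 0.29 in the mean of its detected probes. Aim2, the DNA sensor of an inflammasome, differed by 0.44 with LOC3 + LPS.

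Among 13 kinase scaffolds, adaptors and transcription factors 10 lay above 0 with each strain, with medians of 0.16 and 0.12. In the mean of the detected probes 7 lay above 0 with LOC1 + LPS and 8 with LOC3 + LPS, with medians of 0.07 and 0.06. Traf6 and Azi2 then changed sign with each strain, and Ikbkg with LOC1 + LPS. Tank, a scaffold of TBK1 and IKK-epsilon, differed by 0.48 and 0.53, while its 4 probes ran from -0.74 to 0.53 with LOC1 + LPS and from -0.66 to 0.53 with LOC3 + LPS. Irf7, an interferon regulatory factor that these kinases activate, differed by 0.46 and 0.62. Of 6 effectors of the response to double-stranded RNA, 3 lay above 0 with LOC1 + LPS and 4 with LOC3 + LPS, with medians of 0.22 and 0.18. Ifit1, which binds foreign RNA ends, differed by 0.49 with each strain, and Isg15, a ubiquitin-like modifier, by 0.47 and 0.48. With scaling to the array median, all 6 effectors and all 7 RNA sensing cofactors compared lay above 0 with each strain. In the mean of the detected probes 4 effectors with LOC1 + LPS and 3 with LOC3 + LPS did, with medians of 0.11 and 0.05, and 5 of the RNA sensing cofactors with each strain.

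The partners of ZBP1 in cell death, Ripk1, Ripk3, Mlkl, Casp8 and Fadd, all lay above 0 with each strain, with medians of 0.47 and 0.50, except that Fadd with LOC3 + LPS, at 0.01, was at -0.04 when scaled over the probes detected on all arrays. Mlkl, which breaches the membrane in necroptosis, was measured at 3984 with LPS, 5530 with LOC1 + LPS and 5416 with LOC3 + LPS, or 0.59 and 0.55. Ripk1, a kinase upstream of it, had 1248, 1620 and 1664, or 0.49 and 0.52, while the lowest of its 3 probes was at -0.38 and -0.34. With the scaling used here this list had the highest median of the 5 with each strain. In the mean of the detected probes its medians were 0.28 with LOC1 + LPS and 0.38 with LOC3 + LPS. The deposited ratios held 2 of its genes, with medians of 0.39 and 0.31. With LOC3 + LPS the medians of the kinase scaffold list, 0.47, and the DNA sensing list, 0.40, were then higher.

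**Figure D4:**
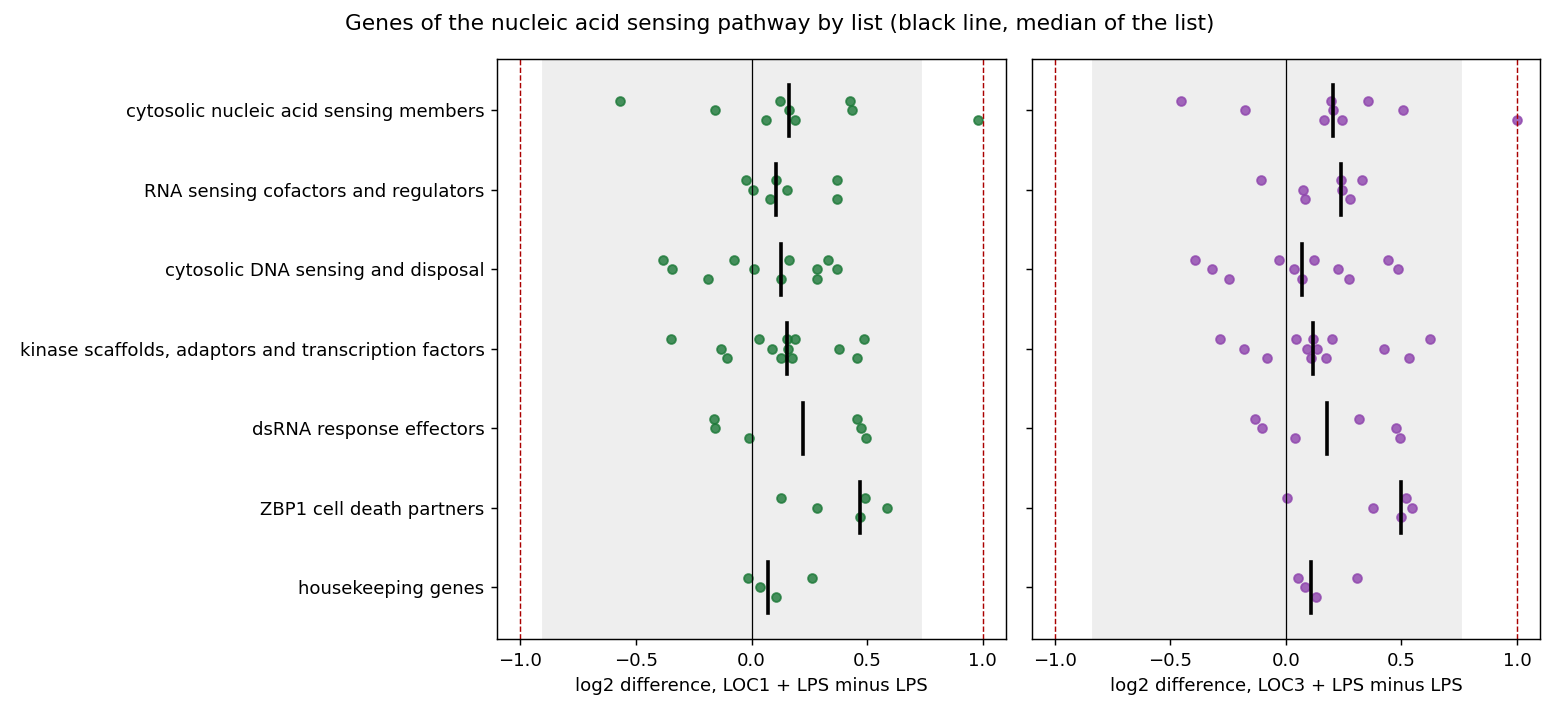
Scaled log2 difference from LPS alone for the genes of each list, with LOC1 + LPS on the left and LOC3 + LPS on the right. Each point is a gene by its brightest probe, black lines are list medians, dashed lines 2-fold and the grey band the 5th to 95th percentile of all genes compared. All 5 partners of ZBP1 lie above 0 inside the band, Fadd with LOC3 + LPS at 0.01, while Zbp1 lies outside it.

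Promoters were searched because several members are known as interferon targets. RefSeq windows of GRCm38.p6, from 250 bases before to 50 bases after the start site, were matched for 6 of the 9 members, without Dhx58, Tmem173 and Zbp1. The core of the interferon-stimulated response element, GAAANNGAA on either strand, was found in Ifih1 and Ddx58, and in 8.56% of 32851 promoters. With the first transcribed base as 1, it began at -112 and at 33 in Ifih1 and at 4 in Ddx58. It was not found in these windows of Mavs, Mb21d1, Tbk1 and Ikbke. The gamma-activated site, TTCNNNGAA, was found in 0 of the 6 and in 8.30% of all promoters. A match is a stretch of letters and no measure of binding. The 250 bases before the start site of Ifih1 are shown, from chr2:62646256-62646505 on the minus strand of GRCm38.p6, since they hold the upstream match, which is in capitals and lies on the opposite strand.
Ifih1 promoter: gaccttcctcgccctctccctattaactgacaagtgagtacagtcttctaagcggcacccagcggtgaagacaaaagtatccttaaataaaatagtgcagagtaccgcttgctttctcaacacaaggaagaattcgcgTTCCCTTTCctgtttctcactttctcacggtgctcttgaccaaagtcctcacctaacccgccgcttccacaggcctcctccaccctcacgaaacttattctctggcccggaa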

How the data were processed

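RNA from 3 conditions was measured on Agilent SurePrint G3 mouse arrays, 1 array each. The intensity of each spot was deposited by the authors as Feature Extraction's processed signal (version 12.0.3.1 in the file headers), background-corrected and not normalized between arrays. The authors also deposited log2 ratios over unchallenged macrophages from GeneSpring, blank under 2-fold. Outlier spots, 118 to 135 per array, were left out and spots of a probe averaged. The log2 intensity less the 75th percentile over non-control spots was compared, and a signal not well above background (47.8% to 51.9% of probes were above it) was raised to the lowest one that was. A gene entered if either array compared measured it above background. No spot was saturated, and the number of arrays limits the precision. The methods' t-test was not run, since it needs more than 1 array per condition. Promoters came from RefSeq tables of GRCm38.p6.

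The 9 members are all named, with every probe. Of the pathway lists the text names genes past 2-fold, otherwise those with the 2 largest differences per list and comparison. Some genes of the lists are not reported here. Members and lists were chosen with earlier results of these data known. Steps of the procedure were run on simulated data with known changes, and no result of that run is given here. It therefore does not show how well the scaling used here recovers differences of the size reported. Python 3.11.15, numpy 2.4.6, pandas 2.3.3 and matplotlib 3.10.9 were used, with limma 3.58.1 in R 4.3.3 for normexp background correction (offset of 50). Other alternatives were median, quantile and other percentile scalings, the deposited ratios, other filters and thresholds, the mean of detected probes and outlier spots kept.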

Additional observations from a re-analysis of the deposited data

How the results depend on the processing

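Zbp1 sits at the 2-fold threshold, so the number of members past it moved between 0 and 1. For LOC1 + LPS it was 0, and became 1 with median scaling, with the deposited ratios, with a 1.5-fold threshold and with the 75th percentile over probes (an alternative chosen after seeing the data), Zbp1 each time. It was 1 with the mean of the detected probes, where the gene was Ikbke at -1.15. For LOC3 + LPS it was 1, and became 0 with quantile normalization, normexp background correction, the 75th percentile over probes well above background on all arrays, the mean of the detected probes and a 3-fold threshold. Across alternatives Zbp1 ran from 0.85 to 1.20 with LOC1 + LPS and from 0.81 to 1.20 with LOC3 + LPS, and Ikbke from -1.15 to -0.35 and from -0.76 to -0.26. Median scaling moved the median of all genes compared by over 0.1, to 0.22 and 0.23, and that of the members from 0.16 to 0.38 with LOC1 + LPS and from 0.20 to 0.40 with LOC3 + LPS. With quantile normalization the members' median was 0.11 with LOC1 + LPS and 0.14 with LOC3 + LPS. In the mean of the detected probes it was 0.11 and 0.22. Of the 18 differences from LPS, 4 changed sign under an alternative: Mavs with each strain under median scaling (0.06 and 0.02), Mb21d1 with LOC1 + LPS under quantile normalization (-0.03) and Ifih1 with LOC3 + LPS under the mean of its detected probes (-0.09). The cause was not tested. Of genes past 2-fold in all, 1277 with LOC1 + LPS and 1230 with LOC3 + LPS became 426 and 417 with normexp background correction and 3839 and 3779 without a filter or floor. The deposited ratios give no value for Tmem173 and Tbk1. No paired analysis was possible because each condition has 1 array.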

Other observations

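In the deposited ratios of LPS over unchallenged macrophages, the other genes of the pathway moved in both directions. The genes named here were chosen after their values were seen. Of the effectors of the response to double-stranded RNA, 5 are listed as higher, where 14.1% of all genes detected here are. Ifit1 had the highest ratio of any gene of the 5 lists and is a bound of at least 2372-fold, because the signal implied for unchallenged cells was under the detection limit. Isg15 was listed at 7.81, or 224-fold. Irf7 was listed at 7.03, or 130-fold, on a probe that is not its brightest. Ddx60, a helicase linked to RIG-I signalling, was listed at 5.36, or 41.2-fold.

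In the DNA branch, Ifi204, a DNA-binding protein of the p200 family, was listed at 4.65, and Trex1, the exonuclease that removes cytosolic DNA, was 16.0-fold higher. Dnase2a, the lysosomal DNase, was listed at -1.45 and Nlrc3 at -1.30, each on a probe that is not the brightest of its gene. Of 13 kinase scaffolds, adaptors and transcription factors, 5 are listed as higher and 0 as lower, where 14.1% and 11.2% of all genes detected here are. Of the partners of ZBP1, Mlkl was listed at 1.98 and Fadd, the adaptor of caspase-8, at -1.27, and Ripk1, Ripk3 and Casp8 are not listed.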
